A study of Rattus norvegicus with 45 samples.

Results

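Soleus and gastrocnemius were compared in rats that received cerivastatin at 1.0 mg/kg/day and were not exercised, on 6 of the 45 arrays of the series: 3 soleus arrays and 3 gastrocnemius arrays, chosen by muscle, dose and exercise label alone. Cerivastatin is a statin, a class of drugs that lower cholesterol. All animals were female Sprague Dawley rats, and the drug was given for 14 days. The same contrast in other animals serves as background: exercised rats at 1.0 mg/kg/day (4 soleus and 4 gastrocnemius arrays; treadmill running at 20 m/min for 20 min per day on 5 days per week) and unexercised rats given the methylcellulose vehicle (4 soleus and 4 gastrocnemius arrays). Soleus titles that do not mention exercise were taken as unexercised. The study sampled the soleus at vehicle and at 1.0 mg/kg/day, and the gastrocnemius at lower doses too. The labels call the replicates biological, but they do not say whether a soleus and a gastrocnemius array came from 1 animal. Labelling started from about 3 µg of RNA for soleus and 4 µg for gastrocnemius, so input RNA and muscle cannot be told apart.

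Soleus is a postural muscle built mainly of slow, oxidative fibres, while gastrocnemius is a mixed muscle with many fast, glycolytic fibres. Statins block the synthesis of mevalonate, from which cholesterol and the isoprenoids are built. Cells short of sterol raise transcription of the enzymes of that pathway. Statins can injure skeletal muscle, and injured muscle is entered by monocytes and macrophages and repaired by dividing precursor cells. The values below are signals computed by the MAS5 algorithm, 1 per probe set and array, and differences are soleus minus gastrocnemius on the scale log2(signal + 12.4), followed by ± the standard error (SE). A probe set or gene was called where the p-value from limma, adjusted over all tested probe sets by the Benjamini-Hochberg method, was under 0.05. Every adjusted p below is of that kind. Where a gene had several tested probe sets, the one with the highest mean stands for it.

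Array quality was similar in both muscles: the ratio of 5' to 3' probe set signals, which falls as RNA degrades, was 0.352 to 0.501 in soleus and 0.394 to 0.482 in gastrocnemius for actin, and 0.625 to 0.737 in soleus and 0.688 to 0.836 in gastrocnemius for Gapdh. Of the 6 arrays, 1 went against its group. Gastrocnemius replicate 3 correlated at 0.944 with soleus replicate 3, above its correlations of 0.862 and 0.841 with the other gastrocnemius arrays, which correlated at 0.958 with each other. Its highest correlation in the whole series was 0.947, with an array outside these 6. Its mean log2 level of the glycolysis list was 13.48, within the 13.35 to 13.48 of unexercised vehicle gastrocnemius. That of the macrophage list was 8.56, within 7.57 to 8.71 there. Its fast sarcomere level was 15.28, just below 15.39 to 15.47 there, and its adipocyte level was 10.69, above 8.39 to 10.29. Soleus replicate 3 stood apart in another way, since it carried the fast fibre transcripts described below. The labels and values used here do not settle whether gastrocnemius replicate 3 is the sample its label names, and results from all 6 arrays take that label as given. For most gene lists, counts of called genes are therefore given with all 6 arrays and again without that array. They are read against the shares of all genes called, which the next paragraph gives for both settings. In whole muscle, fewer cells of a type and less RNA per cell cannot be told apart.

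With all 6 arrays, 1193 of 21729 probe sets were called (5.49%), 650 higher (2.99%) and 543 lower (2.5%) in soleus. Counted as genes, 765 of 11684 were called (6.55%), 373 higher in soleus (3.19%) and 392 lower (3.36%). Of these genes, 318 were higher and 247 lower with no overlap between the 3 soleus and the 3 gastrocnemius arrays. Among all genes, called or not, the soleus arrays lay all above the gastrocnemius arrays in 12.4% and all below in 10%. Without gastrocnemius replicate 3, the count of probe sets grew to 4101 (18.9%), 2013 higher and 2088 lower, and 1161 of the 1193 (97.3% of these, 28.3% of the larger set) were among them with the same sign. Removing either other gastrocnemius array had the opposite effect: 58 probe sets were called without replicate 1 and 64 without replicate 2. Without replicate 3 of either muscle, 3263 were called (15%). A fit to the 6 arrays alone, with no spread shared with other groups, called 25 probe sets, 25 higher and 0 lower in soleus. Among all genes, 9.89% were called higher and 12.5% lower without gastrocnemius replicate 3. The median difference over all genes was -0.01 with 6 arrays and -0.02 without gastrocnemius replicate 3, close to 0 in both.

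**Figure D1:**
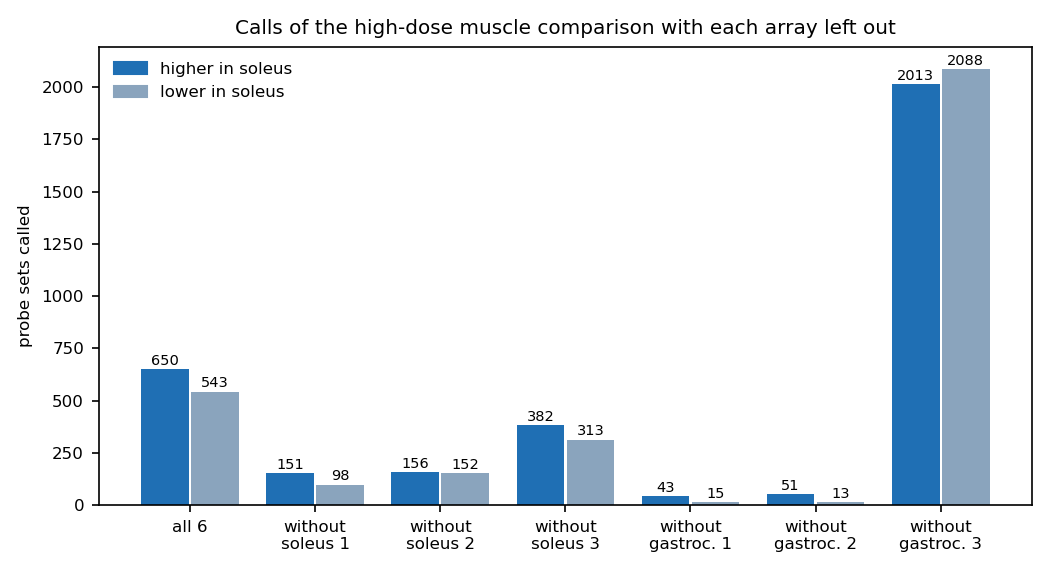
Number of probe sets called higher (left bar of each pair) or lower (right bar) in soleus than in gastrocnemius at 1.0 mg/kg/day, unexercised, with all 6 arrays and with each array left out in turn. Leaving out gastrocnemius replicate 3 gave 2013 and 2088 calls, while leaving out gastrocnemius replicate 1 or 2 left 43 and 15, or 51 and 13.

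A small set of 33 probe sets was called with all 6 arrays and with each of the 6 left out in turn, 27 of them higher and 6 lower in soleus. Among the named ones were Lama2, the laminin alpha 2 chain of the muscle basement membrane, and Scarb2, a lysosomal membrane protein. Lama2 had signals of 4284, 3596 and 3159 in soleus, against 993.6, 1308 and 2256 in gastrocnemius, a difference of 1.34 ± 0.23 (limma, adjusted p = 0.00161). Scarb2 had signals of 255.5, 385.7 and 583.9 in soleus, against 1320, 1653 and 1047 in gastrocnemius, a difference of -1.74 ± 0.26 (limma, adjusted p = 0.000251). In both genes the muscles did not overlap, with or without gastrocnemius replicate 3. Most of the named ones were also called in the same direction in vehicle rats, among them Lama2 at 0.67 and Scarb2 at -0.83.

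The genes that were highest in soleus relative to gastrocnemius, among those with no overlap between the arrays, included those of a muscle methyltransferase, secreted matrix proteins and a membrane channel. Mettl21c, which codes for a lysine methyltransferase of muscle, had signals of 5890, 4772 and 7359 in soleus, against 498.4, 183.3 and 890 in gastrocnemius, a difference of 3.72 ± 0.84 (limma, adjusted p = 0.00855). Adamts8, a secreted metalloproteinase, had 1260, 2314 and 509.5 in soleus and 50.1, 90.5 and 94.2 in gastrocnemius, a difference of 3.71 ± 0.68 (limma, adjusted p = 0.00212). The lowest soleus array thus lay several times above the highest gastrocnemius array in both genes. Col10a1, the chain of type X collagen, had 865.9, 717.4 and 516.1 in soleus and 45.1, 29.1 and 74.4 in gastrocnemius, a difference of 3.56 ± 0.58 (limma, adjusted p = 0.000837). Col2a1, the chain of type II collagen, had 286.1, 149.6 and 151.4 in soleus and 4.2, 2.9 and 6.9 in gastrocnemius. All 3 gastrocnemius signals lie below the offset of 12.4, so the size of its difference, 3.55, depends on that offset and is no measured fold. The same limit touches other genes with signals below the offset in 1 group, such as Fgg, with 15.3, 9.7 and 10.1 in gastrocnemius. Differences between 3.08 and 3.48 were measured for Doc2g, Fgg (a fibrinogen chain), Esm1 (endocan, a proteoglycan of endothelium), Aqp7 (a glycerol and water channel), Gnat3 (a G protein alpha subunit), Xpo4 (a nuclear export receptor), Asb18 and Ninj2. In vehicle rats 7 of these 12 genes were also called higher in soleus, among them Mettl21c at 2.78, Adamts8 at 2.37, Xpo4 at 2.82 and Col10a1 at 1.61.

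Among called genes with no overlap between the arrays, those with the largest negative differences included several known from macrophages and dividing cells. Mmp12 (macrophage elastase) had signals of 76.9, 3.8 and 71.8 in soleus, against 831.5, 5267 and 118.1 in gastrocnemius, a difference of -4.07 ± 0.90 (limma, adjusted p = 0.00807). Spp1 (osteopontin, a secreted protein made by macrophages in injured muscle) had 722.6, 1168 and 666.7 in soleus and 22132, 28086 and 1269 in gastrocnemius, a difference of -3.47 ± 0.85 (limma, adjusted p = 0.0156). In both genes gastrocnemius replicate 3 lay closer to the soleus arrays than to the other gastrocnemius arrays. Differences between -3.39 and -2.46 were measured for Tlr2 (a receptor for bacterial lipoproteins), Ch25h (cholesterol 25-hydroxylase), Slc13a3 (a dicarboxylate transporter), Dok2 (a signalling adaptor of blood cells), Aurkb (a mitotic kinase), Pvr (an adhesion receptor), Mefv (pyrin), Il1rl1 (the receptor for interleukin 33), Chaf1a (a histone chaperone) and Tfec (a transcription factor of macrophages). Among them were genes in which gastrocnemius replicate 3 lay nearer to its own group in signal, Mefv and Chaf1a. Mefv had 6.8, 12.5 and 9.4 in soleus, against 115, 123.3 and 128.3 in gastrocnemius. Chaf1a had 40.4, 28.9 and 20.8 in soleus, against 271.3, 226.5 and 171.6 in gastrocnemius. Of these 12 genes, 0 were called lower in soleus of vehicle rats, and Spp1 was called higher there.

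**Figure D2:**
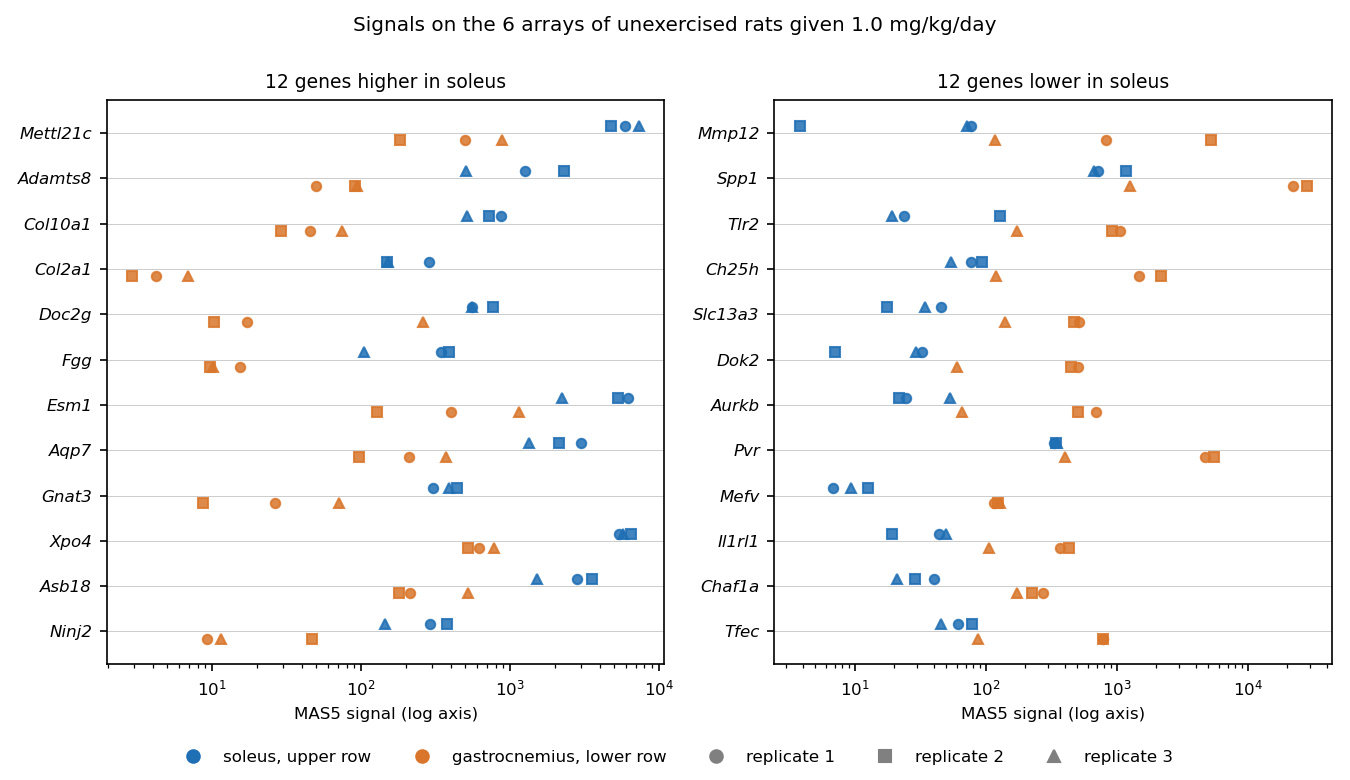
Signals, on a log axis, of the 12 genes with the largest positive (left) and the 12 with the largest negative (right) soleus minus gastrocnemius difference among called genes without overlap, on the 6 arrays of unexercised rats at 1.0 mg/kg/day. Each point is 1 array, with soleus in the upper row of a gene and gastrocnemius in the lower row. Gastrocnemius replicate 3 (triangles) lies near soleus for genes such as Pvr (403.1, against 4719 and 5517 on the other gastrocnemius arrays) and with its own group for Mefv.

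Sarcomere genes describe the fibre types on each array, but the slow list alone did not separate the muscle labels across the series. The mean log2 level of the slow sarcomere list, for example, was 14.46 on unexercised vehicle gastrocnemius replicate 1. It was 14.17 on exercised soleus replicate 1 at 1.0 mg/kg/day, the lowest soleus array of the series. Gastrocnemius replicate 3 of the 6 arrays had 13.55, below every soleus array. Its level of the fast sarcomere list, 15.28, was above every soleus array of the series, the highest of which had 14.90. What these levels mean for its label was not tested. In the slow sarcomere list, 12 of 12 tested members had a positive difference, with a median of 1.57, and 10 of 12 did not overlap between the muscles (soleus above gastrocnemius in 12.4% of all genes). Only 1 member, Myh6, was called, also without gastrocnemius replicate 3. Tnni1, the slow skeletal troponin I, had signals of 54108, 46627 and 56762 in soleus, against 12617, 8062 and 21798 in gastrocnemius, a difference of 2.00 ± 1.55 (limma, adjusted p = 0.492). Myh7, the slow myosin heavy chain, had 73805, 66019 and 86452 in soleus and 47044, 32888 and 50099 in gastrocnemius, a difference of 0.81 ± 1.88 (limma, adjusted p = 0.857). Both genes separated the muscles on these 6 arrays, but the standard error comes from all 12 groups of the series. The mean level of the slow sarcomere list in exercised gastrocnemius at 1.0 mg/kg/day, for example, was 13.68, 7.89, 13.08 and 9.72 on the 4 arrays. Myh6, which codes for the alpha cardiac myosin heavy chain, had 222, 229.7 and 289 in soleus and 72.2, 67.1 and 95.7 in gastrocnemius (1.52 ± 0.47; limma, adjusted p = 0.0475).

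Fast sarcomere genes overlapped between the muscles at this dose. Of 15 tested members, 0 were called with 6 arrays, and the median difference was -0.21. With gastrocnemius replicate 3 left out the median was 0.10, and 3 members were called higher in soleus and 0 lower, namely Mylk2 (a myosin light chain kinase), Myoz3 and Myom2 (Z-disc and M-band proteins). Without replicate 3 of both muscles the median was -0.28, and 2 were called higher. The mean log2 level of the list was 13.55, 12.92 and 14.90 in soleus, against 13.90, 13.16 and 15.28 in gastrocnemius, so that replicate 3 was the highest array of either muscle. Myh4, the myosin heavy chain of the fastest fibres, had signals of 409, 173.4 and 40056 in soleus and 6250, 6458 and 54422 in gastrocnemius (-3.15 ± 1.74; limma, adjusted p = 0.301). Actn3, the Z-disc actinin of fast fibres, had 1918, 653.6 and 51452 in soleus and 14874, 7640 and 71096 in gastrocnemius (-2.31; limma, adjusted p = 0.41). Pvalb (parvalbumin, a calcium buffer of fast fibres) had 390.8, 59.3 and 24868 in soleus and 1712, 193.8 and 46209 in gastrocnemius. All 3 genes were high on replicate 3 of both muscles and overlapped between the muscles. In vehicle rats the list level was 12.60, 14.81, 13.96 and 13.02 in soleus and 15.47, 15.42, 15.46 and 15.39 in gastrocnemius, and 8 of 15 members were called lower in soleus (4.54% of all genes), Myh4 at -5.07 and Actn3 at -4.78, and Pvalb, which the list does not hold, differed by -5.26.

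**Figure D3:**
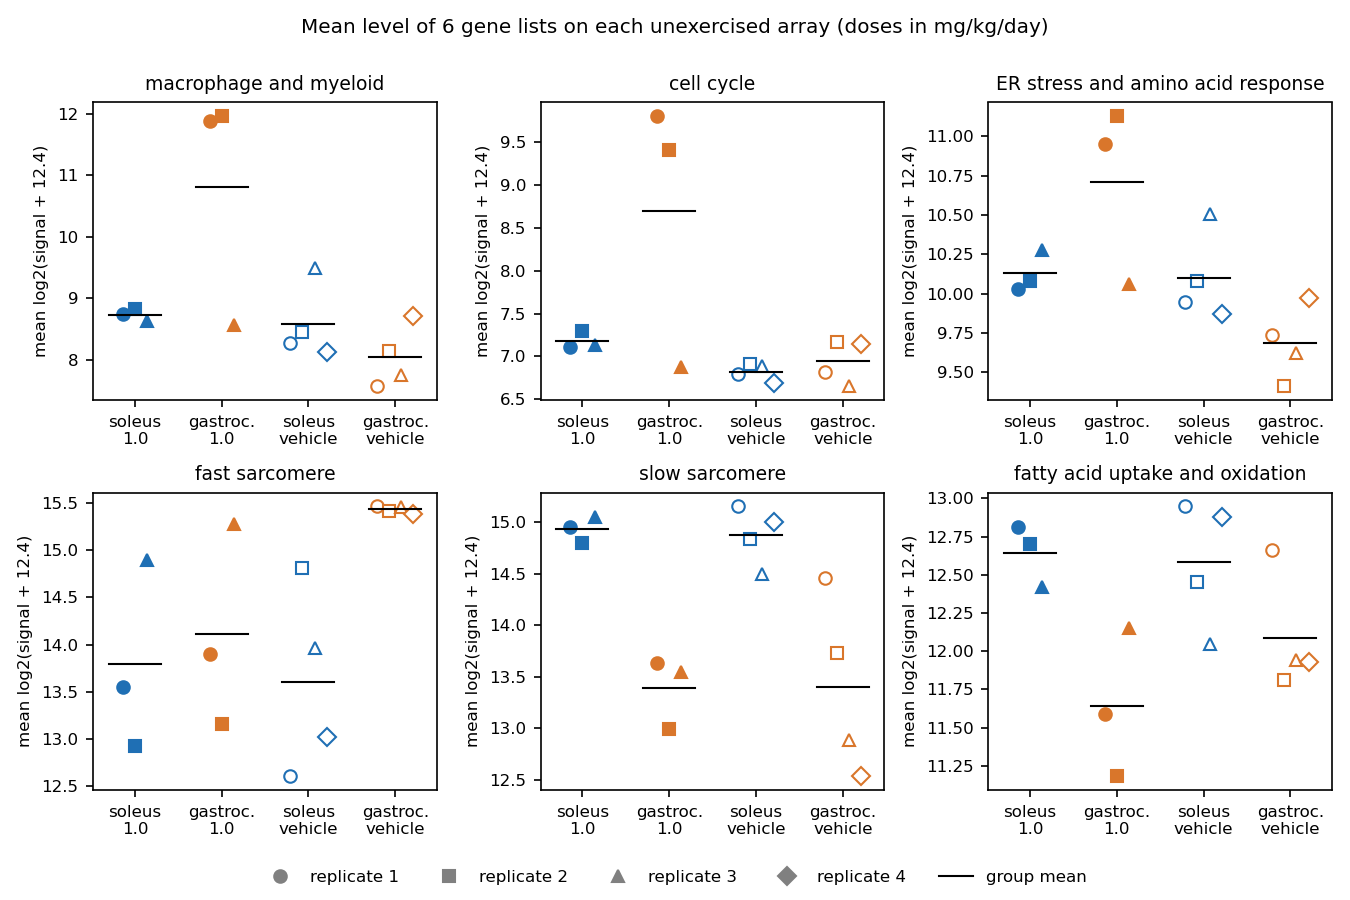
Mean level of 6 gene lists, in log2(signal + 12.4), on each array of the 4 unexercised groups, with soleus left of gastrocnemius at 1.0 mg/kg/day and then in vehicle rats. Points are arrays and bars are group means. Gastrocnemius replicate 3 has a macrophage and myeloid list level of 8.56, close to the soleus arrays, while replicates 1 and 2 lie at 11.88 and 11.96.

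Calcium handling and regulators of fibre type held called genes higher in soleus. Of 26 calcium handling and triad genes, 4 were called higher and 0 lower (3.19% of all genes higher), with a median of 0.72. In 4 of 26 all soleus arrays lay above all gastrocnemius arrays (12.4% of all genes), and in 1 below (10%). Leaving out gastrocnemius replicate 3, 10 were called higher and 0 lower, with a median of 1.25. In vehicle rats 20 of 26 had a negative difference (median -0.74). There 3 were called higher and 3 lower (3.83% and 4.54% of all genes). Ryr3, a calcium release channel of the sarcoplasmic reticulum, had signals of 498, 465.6 and 437.2 in soleus, against 29.1, 66.1 and 98.9 in gastrocnemius, a difference of 2.75 ± 0.60 (limma, adjusted p = 0.00741). Casq2 (the slow and cardiac calsequestrin, which buffers calcium in the reticulum) had 12652, 15089 and 8782 in soleus and 2435, 3143 and 1434 in gastrocnemius (2.41 ± 0.70; limma, adjusted p = 0.0363). Without gastrocnemius replicate 3 the Casq2 difference was 2.10 (limma, adjusted p = 0.0562) and no longer called. Ryr3 and Casq2 were also called higher in soleus of vehicle rats, at 2.77 and 2.91. S100a1 (a calcium-binding modulator of the release channel) and Stim1 (the reticulum's calcium sensor) were higher by 1.49 and 0.94. Stim1 overlapped between the muscles, 2 of its 3 tested probe sets had that direction, and its difference in vehicle rats was -0.51. That of S100a1 in vehicle rats was 0.11, not called. Of the pumps, Atp2a2, the slow and cardiac form, had 66423, 58618 and 65968 in soleus and 32315, 21052 and 25178 in gastrocnemius, and its difference of 1.30 was not called. Atp2a1, the fast form, overlapped between the muscles, with a difference of -0.11.

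Among 28 regulators of fibre type and position, 7 were called higher and 0 lower (3.19% of all genes higher), with a median of 0.80. The counts were 14 higher and 1 lower without gastrocnemius replicate 3, with a median of 1.16. In vehicle rats 3 were called higher and 3 lower, with a median of -0.18. Prox1, a homeobox transcription factor of slow fibres, had signals of 1734, 1827 and 1879 in soleus, against 247.9, 228.9 and 372.5 in gastrocnemius, a difference of 2.66 ± 0.56 (limma, adjusted p = 0.00585). Rcan2, a regulator of the phosphatase calcineurin, had 3976, 3908 and 3774 in soleus and 467.1, 565.7 and 1420 in gastrocnemius, a difference of 2.41 ± 0.52 (limma, adjusted p = 0.00688). Vgll2 (a cofactor of TEAD transcription factors) was higher by 2.32 and Hoxd9 (a homeobox gene of limb position) by 1.39. Hoxd9 differed by -0.29 in vehicle rats and Vgll2 by 1.07, neither called, whereas Prox1 and Rcan2 were called there too, at 2.09 and 1.59. In the membrane ion transport list (18 tested, 2 called higher and 1 lower, or 7 and 2 without gastrocnemius replicate 3), Abcc8 and Abcc9, the sulfonylurea receptor subunits of potassium channels gated by ATP, were higher by 1.52 and 1.45. Kcnn4, a calcium-activated potassium channel of immune cells and dividing cells, was lower, with 4.3, 105.7 and 16.5 in soleus and 1201, 1078 and 22.3 in gastrocnemius (-3.22 ± 0.81; limma, adjusted p = 0.0172).

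Of 38 genes of fatty acid uptake and oxidation, 6 were called higher and 0 lower in soleus with 6 arrays (3.19% of all genes higher), with a median of 1.05. In 25 of them all soleus arrays lay above all gastrocnemius arrays, as in 12.4% of all genes. Acsl1, which activates long fatty acids, had signals of 14022, 12844 and 15300 in soleus, against 2873, 1198 and 13395 in gastrocnemius, a difference of 1.96 ± 0.58 (limma, adjusted p = 0.038). Oxct1, the first enzyme of ketone body use, had 11789, 15474 and 14851 in soleus and 4475, 2197 and 9131 in gastrocnemius (1.64 ± 0.49; limma, adjusted p = 0.0397). Eci1 (an isomerase of beta oxidation) and Etfb (a subunit of the electron transfer flavoprotein) were higher by 1.46 and 1.43. Acsl1 overlapped between the muscles through gastrocnemius replicate 3, while for Etfb that array lay closest to the soleus arrays without reaching them. Of 66 oxidative phosphorylation genes, 65 had a positive difference and 0 were called (median 0.55), and of 19 TCA cycle genes 0 were called (median 0.66). The sign was mostly opposite in vehicle rats, where 53 of the 66 (median -0.20) and 13 of the 19 (median -0.15) had a negative difference. At 1.0 mg/kg/day 2 of 66 and 2 of 19 had all soleus arrays above all gastrocnemius arrays (12.4% of all genes). Without gastrocnemius replicate 3, calls numbered 20 higher and 2 lower for fatty acids, 21 higher and 0 lower for oxidative phosphorylation, and 11 higher and 0 lower for the TCA cycle, where 9.89% of all genes were called higher and 12.5% lower.

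Among 29 glycolysis and glycogen genes, a fast fibre group, 0 were called lower in soleus at this dose and 1 was called higher, Gbe1 (the glycogen branching enzyme), with signals of 16803, 16882 and 17222 in soleus and 5137, 4682 and 10380 in gastrocnemius (1.43 ± 0.43; limma, adjusted p = 0.0403). The list median was 0.32 with 6 arrays and 0.95 without gastrocnemius replicate 3, when 6 were called higher. In vehicle rats 12 of 29 were called lower in soleus (4.54% of all genes) and 0 higher (3.83%). The list median there was -1.15, against 0.07 over all genes. The difference between the doses was itself tested: with all arrays 0 of 29 were called in either direction, and without gastrocnemius replicate 3, 19 of 29 were called with a higher soleus minus gastrocnemius difference at 1.0 mg/kg/day than in vehicle and 1 with a lower one (8.45% and 11.3% of all genes).

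Macrophage and myeloid transcripts were lower in soleus. Of 37 tested genes of the list, 18 were called lower and 0 higher with 6 arrays, with a median of -2.03. Without gastrocnemius replicate 3, 36 of 37 were called lower and the median was -3.12. The summed signal of the list was 35315, 32042 and 32712 in soleus, against 253778, 283110 and 24315 in gastrocnemius, and no tested member was at 0 on any of the 6 arrays. Gastrocnemius replicate 3 thus lay below every soleus array, while the other gastrocnemius arrays lay far above them. Ccl2, the chemokine that draws monocytes, had signals of 506, 534.6 and 327.7 in soleus, against 15822, 18070 and 316.2 in gastrocnemius, a difference of -3.31 ± 0.99 (limma, adjusted p = 0.0406) with 6 arrays and -5.21 without replicate 3. Cd68, a lysosomal protein of macrophages, had 335.8, 238.8 and 256.2 in soleus and 4141, 5158 and 249.5 in gastrocnemius, a difference of -2.63 ± 0.73 (limma, adjusted p = 0.0289). Both genes overlapped between the muscles through gastrocnemius replicate 3 alone. Ccl7, a related chemokine, was lower, at -3.65. The filter on low values was passed by 4 of 9 neutrophil and 7 of 17 lymphocyte genes with a probe set. Of these, 0 were called with 6 arrays, and 3 and 2 were called lower without gastrocnemius replicate 3.

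Cell cycle transcripts showed the same split among the gastrocnemius arrays. Of 30 tested, 10 were called lower and 0 higher (median -1.56), and 25 were called lower without gastrocnemius replicate 3 (median -2.48). Mki67, the proliferation antigen, had signals of 87.7, 30.6 and 22.9 in soleus, against 1612, 1151 and 52.7 in gastrocnemius, a difference of -3.22 ± 0.88 (limma, adjusted p = 0.0263). Prc1, a microtubule bundler of the dividing cell's midzone, had 69.1, 53 and 151 in soleus and 1563, 1148 and 124.2 in gastrocnemius (-2.72 ± 0.71; limma, adjusted p = 0.0201). Plk1, a mitotic kinase, had 28.4, 32.3 and 83.8 in soleus and 766.2, 392.6 and 67.1 in gastrocnemius (-2.39 ± 0.70; limma, adjusted p = 0.0379). In all 3 genes gastrocnemius replicate 3 fell within the range of the soleus arrays. The mean log2 level of the list was 7.11, 7.30 and 7.13 in soleus and 9.80, 9.40 and 6.88 in gastrocnemius. The macrophage list moved with it on the same arrays, and its part in these counts was not tested.

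Promoters of many cell cycle genes are known, mainly from human and mouse cells, to hold a CCAAT box, bound by NF-Y, and a TTTGAA element near the start, bound by repressor complexes outside of division. The promoters of the 3 genes above are shown because they hold both motifs and moved together. They come from RefSeq on the GRCr8 build, 300 bases running along the gene from 250 bases before its start to 50 after, with both motifs in capitals. A CCAAT box on the opposite strand reads as ATTGG, and a TTTGAA element on the opposite strand reads as TTCAAA. Mki67 lies at chr1:199952544-199952843 on the minus strand, Prc1 at chr1:143659231-143659530 on the plus strand and Plk1 at chr1:186147408-186147707 on the plus strand.
Mki67: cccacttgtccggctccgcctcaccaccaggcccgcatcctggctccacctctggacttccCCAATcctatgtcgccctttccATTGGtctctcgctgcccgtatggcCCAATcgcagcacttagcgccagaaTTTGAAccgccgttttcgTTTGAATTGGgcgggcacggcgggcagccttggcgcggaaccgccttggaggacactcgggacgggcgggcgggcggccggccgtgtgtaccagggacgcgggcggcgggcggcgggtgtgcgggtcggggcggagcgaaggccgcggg
Prc1: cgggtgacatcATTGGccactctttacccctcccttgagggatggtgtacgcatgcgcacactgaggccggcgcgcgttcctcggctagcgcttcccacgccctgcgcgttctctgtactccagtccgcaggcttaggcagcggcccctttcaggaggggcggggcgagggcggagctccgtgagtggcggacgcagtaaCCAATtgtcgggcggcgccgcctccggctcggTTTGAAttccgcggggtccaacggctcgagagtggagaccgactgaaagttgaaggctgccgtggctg
Plk1: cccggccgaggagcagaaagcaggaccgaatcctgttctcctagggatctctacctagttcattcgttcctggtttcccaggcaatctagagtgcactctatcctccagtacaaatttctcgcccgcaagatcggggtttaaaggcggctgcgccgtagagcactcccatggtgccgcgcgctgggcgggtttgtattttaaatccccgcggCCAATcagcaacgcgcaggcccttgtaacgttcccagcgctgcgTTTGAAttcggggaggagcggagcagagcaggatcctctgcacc
The first bases of the TTTGAA matches lay at -117 and -99 in Mki67, at -18 in Prc1 and at 7 in Plk1, counted from the gene's start. The nearest upstream CCAAT box of Prc1 began at -50 and that of Plk1 at -38. In Mki67 the second TTTGAA and an ATTGG share a base. Of the cell cycle list, 28 of 30 genes matched a promoter. CCAAT was found in 20 of 28 (71.4%), TTTGAA in 14 (50%) and both in 12 (42.9%), against 37.5%, 18.3% and 7.41% of all 33469 promoters. Of the 9 matched members that were called lower, 8 held CCAAT, 5 held TTTGAA and 4 held both. These matches are a description of the letters only.

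Genes of sterol and isoprenoid synthesis, the pathway that the drug blocks, were lower in soleus for 4 of 24 tested members and higher for 0, with a median of -0.61. Idi1, the isopentenyl diphosphate isomerase, had signals of 263.5, 318.4 and 402.8 in soleus, against 1705, 1881 and 564.6 in gastrocnemius, a difference of -1.88 ± 0.43 (limma, adjusted p = 0.00983). Cyp51, the lanosterol demethylase, had 550.9, 612.2 and 650.8 in soleus and 3034, 3261 and 935.7 in gastrocnemius, a difference of -1.78 ± 0.37 (limma, adjusted p = 0.00534). In both genes gastrocnemius replicate 3 lay between the other gastrocnemius arrays and the soleus arrays. Msmo1 (a sterol demethylation enzyme) and Acat2 (the cytosolic thiolase that makes acetoacetyl-CoA) were lower, at -1.57 and -1.52. Sqle, the squalene epoxidase, had 93.7, 65.1 and 117.8 in soleus and 667.8, 994 and 85.4 in gastrocnemius, which was not called with 6 arrays (-1.99 ± 0.70; limma, adjusted p = 0.0846) and was called without gastrocnemius replicate 3 (-3.02; limma, adjusted p = 0.00202). Insig1, a sterol sensor partner, behaved likewise, at -1.40 (limma, adjusted p = 0.0879) and -2.38 without that array. Without it, 10 of 24 were called lower and 2 higher. In vehicle rats 0 were lower and 2 higher, with a median of 0.14, and the macrophage list, whose part in these values was not tested, moved with the sterol list on the 1.0 mg/kg/day arrays.

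Of 30 genes of the endoplasmic reticulum stress and amino acid response, 7 were called lower and 0 higher (median -0.74), and 16 lower and 1 higher without gastrocnemius replicate 3. Sdf2l1, a chaperone partner of the reticulum, had signals of 527.6, 434.8 and 373.8 in soleus, against 3171, 3465 and 526.9 in gastrocnemius, a difference of -2.0 ± 0.40 (limma, adjusted p = 0.00443). Manf, Pdia6 and Dnajc3, which assist folding there, were lower, at -1.27, -1.13 and -0.96. The heat shock list, which holds cytosolic and mitochondrial chaperones, had 0 of 19 called in either direction (median 0.13). In 7 of 19 all soleus arrays lay above all gastrocnemius arrays (12.4% of all genes), and in 0 below (10%). Of these 19, 2 were called higher and 1 lower without gastrocnemius replicate 3 (median 0.43). In vehicle rats 16 of the 19 had a positive difference (median 0.42). In the lysosome and autophagy list 7 of 32 were called lower and 0 higher (median -0.50; 3.36% of all genes lower), and 16 lower and 0 higher without that array (median -0.87). Ctsz, a lysosomal cathepsin, had 778.8, 713 and 535.5 in soleus and 5973, 5034 and 787.2 in gastrocnemius (-2.09 ± 0.38; limma, adjusted p = 0.00212). Ctsl, another cathepsin, and Atg7, an enzyme of autophagosome formation, were lower, at -1.46 and -1.45. Macrophages also express cathepsins, and the macrophage list was high on the same 2 gastrocnemius arrays, with its part in these values not tested.

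The proteasome list behaved differently from the macrophage list on gastrocnemius replicate 3. Of 30 tested subunits and partners, 30 had a negative difference (median -0.43), 21 had all soleus arrays below all gastrocnemius arrays (10% of all genes), and 4 were called lower (3.36% of all genes). When gastrocnemius replicate 3 was left out, 12 were called lower and 0 higher, with a median of -0.50. In vehicle rats 27 of 30 also had a negative difference, with a median of -0.25, and 1 was called lower. Psmd14, a deubiquitinase of the lid, had signals of 3099, 3166 and 3922 in soleus, against 6456, 7986 and 4921 in gastrocnemius, a difference of -0.90 ± 0.19 (limma, adjusted p = 0.00619). Here replicate 3 of gastrocnemius was the lowest of its group but still above soleus. Psma5, Psmb3 and Psmc4 were lower, at -0.74, -0.66 and -0.61. In the complement and interferon list 12 of 27 were called lower without gastrocnemius replicate 3 (median -1.0). With all 6 arrays 3 of 27 were (median -0.60; 3.36% of all genes lower), the immunoproteasome subunits Psmb8 (-1.70) and Psmb10 (-1.08) and Bst2 (tetherin, -1.0).

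Few oxidative stress and atrophy genes were called with all 6 arrays, where 3.19% of all genes were called higher and 3.36% lower. Without gastrocnemius replicate 3 these shares were 9.89% and 12.5%. In the oxidative stress list (25 tested, median 0.03; 1 called higher and 2 lower, or 1 and 5 without gastrocnemius replicate 3), Gsta4, a glutathione transferase, was higher, with 903.3, 1500 and 923.3 in soleus and 207.3, 59.5 and 546.7 in gastrocnemius (2.40 ± 0.46; limma, adjusted p = 0.0039). Hmox1 (heme oxygenase 1) and Akr1b8 (an aldo-keto reductase) were lower, at -1.98 and -3.01. Gsta4 was also called higher in soleus of vehicle rats, at 1.91, while Hmox1 and Akr1b8 were not called there, at 0.78 and 1.22. Of 25 atrophy genes 2 were called lower, Ctsl and Capn1 (calpain 1, -0.76), and 0 higher, against 6 lower and 2 higher without gastrocnemius replicate 3. Capn1 was called lower in soleus of vehicle rats too, at -0.87, while Ctsl was not called there, at 0.05. The ubiquitin ligases of atrophy, Fbxo32 and Trim63, were not called, at 0.41 ± 0.57 and -0.72 ± 0.60. Rhob, a small GTPase whose prenyl group comes from the blocked pathway, was not called, at 0.18 ± 0.33. Of 50 matrix genes 2 were called higher, Lama2 and Timp3 (an inhibitor of metalloproteinases, 1.52), and 0 lower, with a median of -0.28. The 2 higher calls are a share near the 3.19% of all genes. The matrix counts were 2 higher and 7 lower without gastrocnemius replicate 3, with a median of -0.66. Smtn, the smooth muscle protein smoothelin, was the 1 called gene of 13 smooth muscle markers, at 1.08, and 2 were called higher without gastrocnemius replicate 3.

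Whether the muscle difference depended on the dose was tested as the difference at 1.0 mg/kg/day minus that in vehicle rats. With all arrays 2 probe sets were called (0.0092%), and 3929 (18.1%) had an unadjusted p under 0.05. Spp1 was 1 of them: in vehicle rats its signals were 807.2, 497.1, 1672 and 691 in soleus, against 53.7, 26, 140.1 and 101.1 in gastrocnemius, a muscle difference of 3.36 (limma, adjusted p = 0.00491). The sign was opposite at 1.0 mg/kg/day, and the difference between the doses was -6.83 ± 1.13 (limma, adjusted p = 0.0113). Prr12 (a proline-rich nuclear protein) had 607, 538.8 and 445.5 in soleus and 194, 145 and 327 in gastrocnemius at 1.0 mg/kg/day (1.28 ± 0.24; limma, adjusted p = 0.0029). In vehicle rats Prr12 had 486.1, 558.3, 434.7 and 525.9 in soleus and 785.7, 689.5, 536.3 and 757.3 in gastrocnemius, and the difference between the doses was 1.72 ± 0.32 (limma, adjusted p = 0.0378). Of its 5 tested probe sets, 4 had the same direction at 1.0 mg/kg/day. In both genes the soleus ranges of the 2 doses overlapped and those of gastrocnemius did not.

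Without gastrocnemius replicate 3, 3558 probe sets were called in that test (16.4%), 1671 with a higher and 1887 with a lower muscle difference at 1.0 mg/kg/day. Counted as genes these were 2310 (19.8%). In the macrophage list 33 of 37 were lower and 0 higher, in the cell cycle list 20 of 30 lower and 0 higher, and in the endoplasmic reticulum stress list 16 of 30 lower and 0 higher (11.3% of all genes lower). In the sterol synthesis list 8 of 24 were lower and 2 higher. Cd68 differed between the doses by -4.68 (limma, adjusted p = 0.000221) and Mki67 by -4.62 (limma, adjusted p = 0.00271) without that array, and by -3.29 and -3.15 with it (limma, adjusted p = 0.105 and 0.153). With that array included, Spp1 was the 1 member of these 4 lists that was called.

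**Figure D4:**
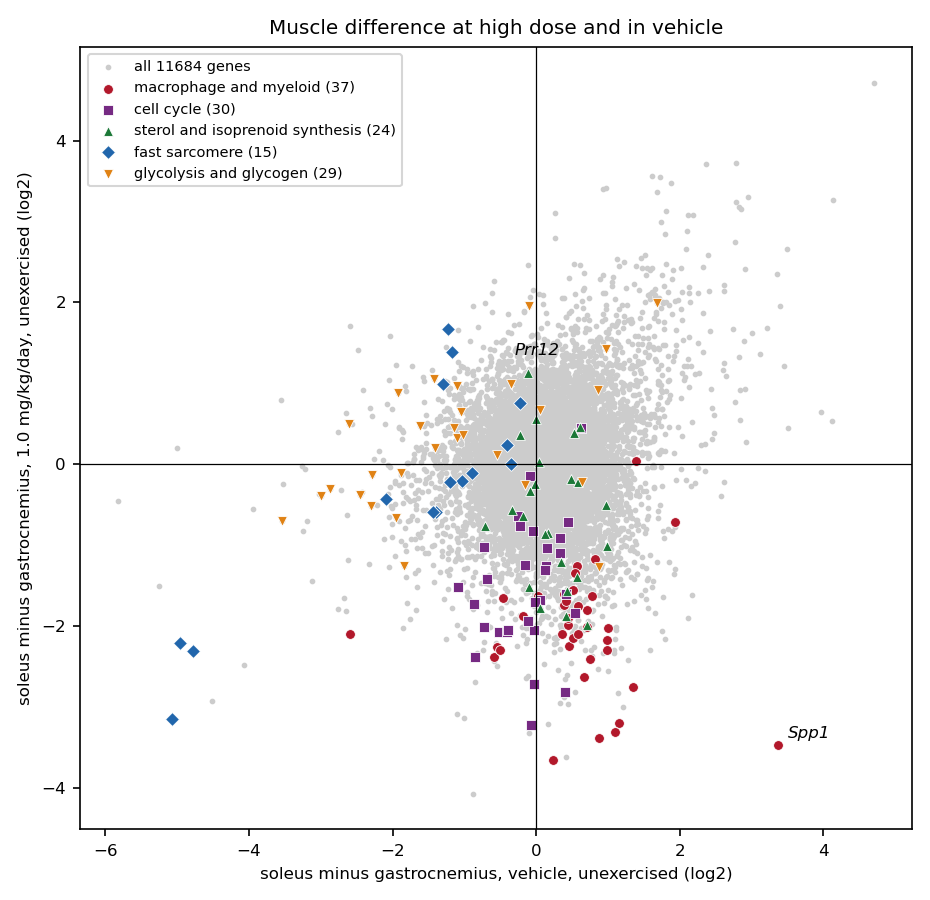
Soleus minus gastrocnemius difference, in log2 units, at 1.0 mg/kg/day (vertical axis) against vehicle (horizontal axis) in unexercised rats, for 11684 genes, with 5 gene lists in colour. Macrophage and myeloid genes lie mostly below 0 on the vertical axis, with Spp1 at -3.47 there and 3.36 in vehicle, and the fast sarcomere and glycolysis genes lie mostly left of 0 on the horizontal axis.

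Over all 21729 probe sets, which are not independent of each other, the differences at 1.0 mg/kg/day correlated with those of vehicle rats at 0.18 and with those of exercised rats at 1.0 mg/kg/day at 0.80. Without gastrocnemius replicate 3 these were 0.02 and 0.86. The 3 contrasts share no array, but they share the array type, the authors' scaling and 1 estimate of the spread. In vehicle rats 1526 probe sets were called (7.02%), 709 higher (3.26%) and 817 lower (3.76%) in soleus. Of the 650 probe sets higher in soleus at 1.0 mg/kg/day, 147 (22.6% of these, 20.7% of the vehicle calls) were also called higher in vehicle rats, and of the 543 lower, 56 (10.3% and 6.85%) were called lower there and 3 higher. In exercised rats at 1.0 mg/kg/day, where 32.6% of all probe sets were called (15.6% higher and 17% lower), 591 of the 650 (90.9% of these, 17.4% of that group's) were called higher and 505 of the 543 (93% and 13.7%) lower. A difference by exercise in the muscle contrast at 1.0 mg/kg/day was also tested: 0 probe sets were called by limma, with 779 (3.59%) at an unadjusted p under 0.05, and 0 without gastrocnemius replicate 3, with 443 (2.04%). In exercised rats the macrophage and myeloid list level was 9.88, 8.49, 8.83 and 9.22 in soleus and 11.58, 12.48, 12.24 and 12.81 in gastrocnemius, so that the muscles did not overlap there, and 36 of 37 members were called lower in soleus (20.2% of all genes) and 0 higher (17.3%).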

How the data were processed

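RNA from 45 muscle samples was measured on single-channel rat arrays. The deposited intensity values, 1 per probe set, are MAS5 signals that the authors computed, as the submitters' processing notes state. The sources used here give neither the MAS5 version nor the target of its scaling. After trimming 2% from both tails, array means were 600.2 to 600.31, and medians were 134.7 to 175.9, so the authors' scaling was kept. No arrays were identical, and the highest correlation between any pair was 0.97. Of 31099 probe sets, 57 controls were left out. The number of arrays limits the precision.

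Values were analysed as log2(value + 12.4), the offset being the 10th percentile of all values, which understates fold changes of low genes. Testing was limited to the 21729 probe sets whose mean reached the 30th percentile (6.03). Group means of all 12 groups were fitted to all 45 arrays with limma (version 3.58.1, R version 4.3.3; lmFit, contrasts.fit, eBayes with trend; 33 residual degrees of freedom), with Benjamini-Hochberg adjustment within each of 5 contrasts and a threshold of 0.05. In simulated data with 21729 probe sets, the comparison at 1.0 mg/kg/day recovered 48% of 100 changes of 1.5 and 86% of 100 changes of 3 on the log2 scale, with 7 false calls. The simulated noise was independent between probe sets, with the same spread in every group, so no simulated array stood apart. These figures therefore do not carry over to the 6 real arrays, where calls ran from 58 to 4101 with 1 array left out.

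Symbols came from the platform annotation: 20826 probe sets had 1 symbol, 436 several and 9780 none in it, and 20758 matched RefSeq by gene identifier. Named genes were the 12 with the largest called difference in each direction without overlap between arrays, up to 8 in each direction for the dose interaction, up to 4 in each direction per gene list, and a fixed set of 37 (35 with a probe set). This gave 103 genes, of which 74 were called. A gene named outside this rule is said to be so or stands in a list summary. Of 886 symbols in 32 lists, 742 were tested. Members and lists were chosen with earlier results of these data known. Alternatives covered offset, filter, scaling, array weights, the arrays entering the fit, a replicate block and each array left out.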

Additional observations from a re-analysis of the deposited data

Results flagged for a closer look

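The muscle difference at 1.0 mg/kg/day departed from that in vehicle rats for Spp1, by -6.83 ± 1.13 (limma, adjusted p = 0.0113; -8.26 without gastrocnemius replicate 3), and for Prr12, by 1.72 ± 0.32 (limma, adjusted p = 0.0378; 2.03 without it).

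Mean log2 levels of the 32 lists were also screened for a single array far from the other 3 of its group. The groups, of 4 arrays each, were both muscles of unexercised vehicle rats and of exercised rats at 1.0 mg/kg/day. In the 128 sets of 1 list and 1 group, 16 such arrays were found, where chance gives about 1 in 20. The sets share arrays and are not independent. The unexercised groups at 1.0 mg/kg/day, with 3 arrays each, are too small for that screen. Of the 16, 9 came from exercised soleus replicate 1 at 1.0 mg/kg/day. Its levels were 14.17 for slow sarcomere (other arrays 14.84 to 14.96), 11.51 for calcium handling (12.37 to 12.43), 10.98 for atrophy (11.25 to 11.26) and 11.80 for proteasome (12.28 to 12.30). They were 10.49 for endoplasmic reticulum stress (9.94 to 10.01), 10.04 for complement and interferon (9.08 to 9.23), 11.30 for Schwann cells and nerve (8.45 to 8.60), 11.75 for endothelium (10.49 to 10.61) and 11.32 for smooth muscle (9.96 to 10.02). In exercised gastrocnemius at that dose, replicate 1 had 11.87 for oxidative stress (11.52 to 11.54).

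In vehicle soleus, replicate 2 had 12.75 for glycolysis (12.13 to 12.18), and replicate 3 had 11.63 for energy sensing (11.90 to 11.94) and 11.36 for lysosome (10.95 to 11.02). In vehicle gastrocnemius, replicate 1 had 12.66 for fatty acid oxidation (11.81 to 11.94), replicate 2 had 9.77 for the myogenic list (9.92 to 9.95) and replicate 3 had 9.29 for smooth muscle (9.77 to 9.84).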

How the results depend on the processing

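The count of called probe sets at 1.0 mg/kg/day, 1193 with all arrays, stayed within 1.5 times under other offsets, filters and scalings (941 to 1319). It was 58 to 4101 with 1 array left out, 25 with only the groups compared, 311 with only unexercised arrays, 10125 with array weights (which gave gastrocnemius replicate 3 a weight of 0.182, against 6.85 for replicate 1) and, as alternatives chosen after seeing the data, 3263 without replicate 3 of both muscles and 641 without the soleus arrays rich in fast fibre signal. The vehicle count, 1526, was 745 to 1320 with 1 array left out, 502 with only unexercised arrays, 3308 with array weights and 767 without the fast-rich soleus arrays; median centring gave a split of 490 higher and 874 lower (35.9% higher), against 709 and 817 (46.5% higher). The exercised count, 7080, was 4945 to 7410 with 1 array left out and 11563 with array weights. The dose interaction, 2, was 0 to 3558 with 1 array left out, 1 with no filter, 8 with the higher filter, 1 with quantile normalization, 1 with median centring, 0 with only the groups compared, 0 with only unexercised arrays, 7105 with array weights, 2864 without replicate 3 of both muscles and 1 without the fast-rich soleus arrays. The exercise interaction, 0, was 0 with each array left out and 1943 with array weights. The cause was not tested.

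Whether equal replicate numbers mark paired samples could not be told. Deviations from group means correlated at 0.059, 0.088 and 0.126 for equal numbers at 1.0 mg/kg/day, and between -0.118 and 0.069 for other pairs. In vehicle, equal numbers gave -0.145 to 0.125 and other pairs -0.257 to 0.32. So few arrays per group cannot decide the question. With the replicate number as a block the counts were 1145, 1438, 7059, 2 and 0, in the order above.

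Of the 74 named genes called, 66 were lost without gastrocnemius replicate 1, 69 without replicate 2 and 1 without replicate 3; without a soleus array 30 to 51 were lost. Only Col10a1 was called under every setting run. None of the named genes changed sign where called.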

Other observations

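Transcripts of fat cells were highest on replicate 3 of both muscles. The mean log2 level of the adipocyte list was 9.88, 9.48 and 11.21 in soleus, against 8.69, 8.82 and 10.69 in gastrocnemius. Adipoq, the adipocyte hormone adiponectin, had signals of 685.6, 363.6 and 5314 in soleus and 67.1, 150.4 and 4526 in gastrocnemius. Of 15 tested members 0 were called, with a median of 0.93. Soleus and gastrocnemius replicate 3, which also correlated most closely across the muscles, shared both the fast fibre and the adipocyte signal.

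Several genes chosen after their values were seen lay just outside the threshold. Myh3, the embryonic myosin heavy chain, had 5359, 6443 and 7436 in soleus and 121.2, 2487 and 851.1 in gastrocnemius (3.27 ± 1.03; limma, adjusted p = 0.0522). Timp1, a metalloproteinase inhibitor, had 1703, 1550 and 1212 in soleus and 22813, 24502 and 887.6 in gastrocnemius (-2.42 ± 0.76; limma, adjusted p = 0.0508). Lpl (lipoprotein lipase) had 36580, 36254 and 31190 in soleus and 9350, 9953 and 11478 in gastrocnemius (1.76 ± 0.56; limma, adjusted p = 0.057). In Myh3 and Lpl the muscles did not overlap, while Timp1 overlapped through gastrocnemius replicate 3.

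Among the 33 probe sets called under every omission of 1 array were Pdk1 (a kinase that inhibits pyruvate dehydrogenase) at 2.55, Cdkn1b (the cell cycle inhibitor p27) at 1.36, Thrb (a thyroid hormone receptor) at 1.32 and Bmp6 (a growth factor) at 1.69, all higher in soleus. Acsl4, which activates arachidonic acid, was lower, at -1.54. Pdk1, Cdkn1b and Acsl4 were called in the same direction in vehicle rats, at 1.47, 0.89 and -1.22. Thrb and Bmp6 were not called there, at 0.22 and 0.48.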
